A study of Arabidopsis thaliana with 12 samples.

Results

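The transcript response to chitooctaose that remains in seedlings carrying a mutation in the chitin receptor was described from 6 of the 12 arrays of the series. These are the 3 arrays of mutant seedlings given chitooctaose and the 3 of mutant seedlings given water, chosen by their titles and not by any measured value. All 22746 probe sets that are not array controls were tested on them. Chitooctaose, a soluble chain of chitin sugars, was given at 1 um (read here as micromolar) for 30 minutes, and water was the control over the same time. The other 6 arrays hold wild type Col-0 with the same treatments, 3 arrays each. The mutant is in the Col-0 background and is named by its receptor defect alone, so its allele and the number of lines behind it are not known here. All seedlings were whole plants from liquid MS medium, 14 days old and kept in constant light.

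Chitin is a structural polymer of fungal cell walls. Plants sense fragments of it through receptors with LysM domains outside the cell, and in Arabidopsis the LysM receptor kinase CERK1 is required for this. Binding sets off calcium influx, a burst of reactive oxygen and MAP kinase activity, and then a fast wave of transcription that includes WRKY factors, calmodulin-like proteins, U-box E3 ligases and chitinases. Fragments of chitin are also substrates of plant chitinases, which belong to the defence against fungi.

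Median intensities of the 6 mutant arrays lay between 178.4 and 196.6, and arrays of 1 mutant group correlated with r from 0.988 to 0.993 across probe sets. A value is a probe set's intensity on a linear scale. A fold change is given as the difference between group means on the log2(intensity + 16) scale, on which the change of dim genes is understated, and ± is the standard error of the fit unless SD is written. A probe set is called when its adjusted p from limma is under 0.05. No probe set here is named for CERK1, so the genotype was not checked by its transcript. Whole seedlings were pooled in each RNA, so fewer cells of a type and less RNA per cell cannot be told apart. Of the measured tissue markers, the root hair genes EXPA7 and EXPA18 changed by -0.05 ± 0.12 and -0.02 ± 0.11, the root and endoplasmic reticulum body gene PYK10 by 0.00 ± 0.07, the stomatal gene FMA by 0.00 ± 0.12 and the stem cell gene CLV3 by 0.01 ± 0.22, none of them called. CLV3 was dim, at 18.9 in chitooctaose and 18.7 in water. The vascular, seed and green tissue lists had no measured member, so those tissues were not checked. The titles call the arrays biological replicates without saying what was repeated, and 3 arrays per group limit the precision.

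In the mutant 339 probe sets (1.49%) were called, 164 higher (0.721%) and 175 lower (0.769%) with chitooctaose, against 4298 (18.9%) in wild type. Most of the changes were small. Of the 164 that were higher 110 changed by under 1.5-fold, as did 123 of the 175 that were lower, and the medians were 0.51 and -0.46 on the log2 scale. Called changes of at least 2-fold numbered 20 (0.0879%), 13 higher (0.0572%) and 7 lower (0.0308%). Only 3 of these 13 and 1 of these 7 are tied to 1 gene by the annotation. Brighter probe sets were called more often, with 165 calls among the 5687 brightest (2.9%) and 7 among the 5686 dimmest (0.123%). All 339 had mutant arrays that did not overlap between the treatments, a separation shown by 18.5% of all probe sets (7.06% higher and 11.4% lower). An unadjusted p under 0.05 was found for 2465 probe sets (10.8%). The called shares of 1.49%, 0.721% and 0.769% are the background for each count of called list members below. The number of calls rests on the set of arrays, and was 155 to 243 when 1 of the 6 was left out.

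The genotypes share no arrays in these responses, so the wild type arrays show what the called probe sets do when the receptor is present. However, the model gave each probe set the same variance in both genotypes, and brighter probe sets were called more often in the mutant. Calls in mutant and wild type are therefore not independent, and the counts of shared calls are a description. Of the 164 that rose in the mutant 76 were also called higher in wild type, 33 were called lower there and 55 were not called. Of the 175 that fell 92 were also called lower in wild type, 28 were called higher and 55 were not called. The wild type response itself was called higher for 8.82% and lower for 10.1% of all probe sets. The median wild type response was 0.23 for the 164 (quartiles -0.15 and 0.59) and -0.26 for the 175 (quartiles -0.74 and 0.04). The difference of responses, mutant minus wild type, was called for 97 of the 164 (59.1%) and 82 of the 175 (46.9%), against 11.3% of all probe sets (4.66% higher and 6.62% lower in the mutant). That difference holds the mutant response by which the 339 were chosen, so these shares are a description. Many probe sets also started from unequal levels. In water 89 of the 164 were called lower in the mutant than in wild type and 41 higher (median -0.35). Of the 175, 31 were called lower and 49 higher (median 0.11). Mutant water is part of the response by which they were chosen, so these counts are a description too.

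**Figure D1:**
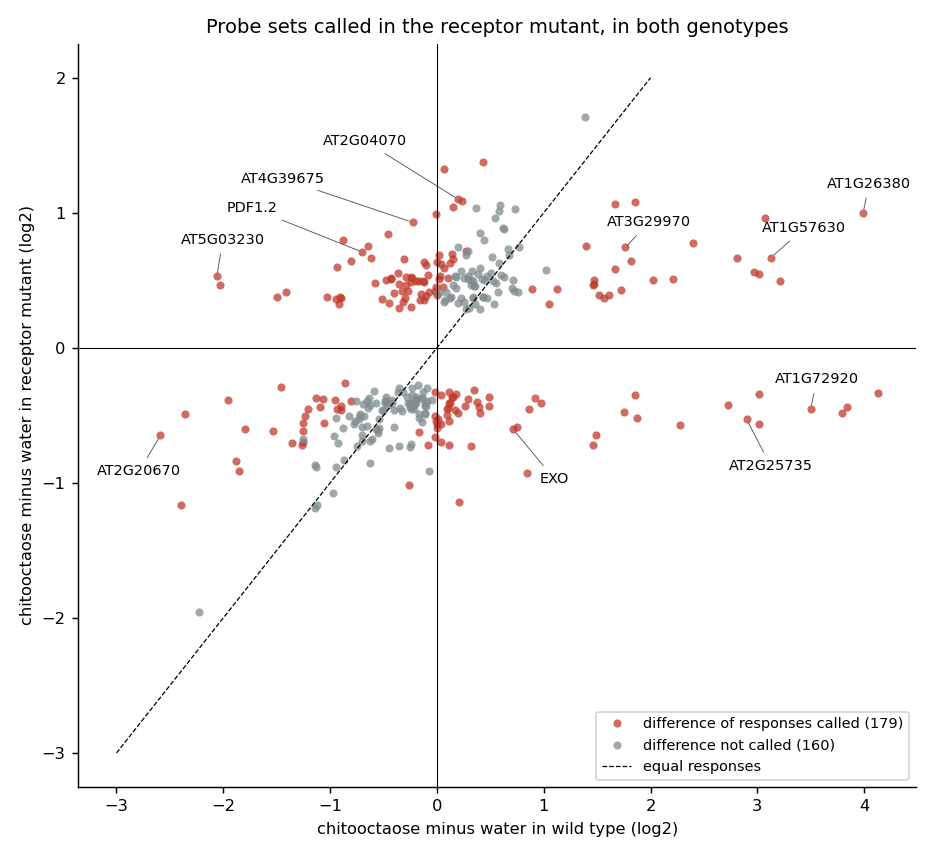
Response to chitooctaose of the 339 probe sets called in the receptor mutant, with the mutant response on the vertical axis and the wild type response on the horizontal axis, both log2. Red points (179) have a called difference of responses and grey points (160) do not. Colour follows the difference of responses, so the closeness of grey points to the dashed line of equal responses is built in. Red points spread widely to both sides of 0 in wild type. Of the 13 increases and 7 decreases of at least 2-fold in the mutant, 8 and 3 are red.

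The largest changes with no single gene name are given by probe set ID. Probe set 256376_s_at, which the annotation ties to 2 genes, had 61.6, 66.3 and 84.2 in mutant chitooctaose, against 9.84, 8.24 and 13.1 in mutant water, a rise of 1.71 ± 0.16 (adjusted p = 9.9e-06). Probe set 252746_at had 2131, 2056 and 1837 in mutant chitooctaose, against 739.9, 733 and 817 in mutant water (1.38 ± 0.09, adjusted p = 2.7e-07). The treatments stood well apart for both. The decreases were led by 248676_at, with 143, 132 and 134 in mutant chitooctaose against 567, 559 and 601 in mutant water. It fell by 1.96 on the log2 scale (SE 0.10, adjusted p = 1.2e-08), and it fell by 2.22 in wild type (SE 0.10). The difference of 0.27 had a 95% interval of -0.02 to 0.56. Probe set 258218_at fell by 1.19 in the mutant (SE 0.09, adjusted p = 2.4e-06) and by 1.15 in wild type (SE 0.09), with a difference of -0.04 (-0.32 to 0.24). Of the 4, 252746_at was the one with a called difference between the genotypes, and it rose by 0.43 ± 0.09 in wild type (difference 0.95 ± 0.12, adjusted p = 2.9e-05).

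Transport proteins that move toxic compounds and AAA ATPases of the mitochondrial BCS1-like family supplied several of the strongest named increases. AT2G04070, on chromosome 2, codes for a MATE efflux carrier, a family that exports organic compounds from cells or into the vacuole. It had 525, 493 and 504 in mutant chitooctaose, against 227, 238 and 219 in mutant water. In wild type it had 32.4, 39.1 and 26.3 in chitooctaose, against 37.7, 24.9 and 17.9 in water. Its mutant groups did not overlap and its wild type groups did. It rose by 1.1 ± 0.15 in the mutant (adjusted p = 0.00057) and had a value of 0.20 ± 0.15 in wild type that was not called (adjusted p = 0.4). The responses differed by 0.90 ± 0.21 (adjusted p = 0.0074).

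AT2G04050, a MATE relative with a nearby locus number, had 744, 700.4 and 592 in mutant chitooctaose, against 373, 329 and 378 in mutant water. Its wild type arrays were lower, with 134, 209 and 183 in chitooctaose, against 111, 103 and 105 in water. It rose by 0.88 ± 0.13 in the mutant (adjusted p = 0.0012) and by 0.63 ± 0.13 in wild type, and the difference of 0.25 had a 95% interval of -0.13 to 0.64. Its relatives may share probes, so how the signal divides among them is uncertain. Of the 36 MATE genes measured, these were the 2 called and none fell, where 1.49% of all probe sets were called. Under quantile normalization or median centring 1 probe set of the list was called lower. The median was 0.00 over the list's probe sets beside -0.03 over all probe sets.

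Of the 14 BCS1-like AAA ATPase genes 3 rose in the mutant and none fell (median 0.13), where 0.721% of all probe sets were called higher. The count was 1 to 3 when single arrays were left out. BCS1-like proteins are anchored in organelle membranes, and several family members are known as stress-induced. AT2G18190 had 205, 247 and 179.9 in mutant chitooctaose, against 115, 107 and 106 in mutant water, with no overlap (0.85 ± 0.14, adjusted p = 0.0029). In wild type it rose by 0.40 ± 0.14, and the difference was not called (adjusted p = 0.17, 95% interval 0.04 to 0.85). Its mean in water was 109 in the mutant and 37.9 in wild type. AT3G28580 had 103, 132 and 111 in mutant chitooctaose, against 49.6, 68.2 and 64.9 in mutant water, and rose by 0.77 ± 0.15 (adjusted p = 0.014). Its response was larger in wild type, at 2.40 ± 0.15, where the chitooctaose arrays held 105, 131 and 115 and the water arrays 12.8, 6.22 and 8.83. With chitooctaose the genotypes thus reached like intensities and they differed in water. AT1G43910 rose by 0.47 ± 0.11 in the mutant and by 1.47 ± 0.11 in wild type (difference -1.0 ± 0.15, adjusted p = 0.0002). Its mean was 1753 in mutant water, against 346 in wild type water and 982 in wild type chitooctaose. The call of AT3G28580 was lost without chitooctaose array 2, water array 1 or water array 3 (adjusted p up to 0.089), and that of AT1G43910 in every fit but the one without chitooctaose array 3 (adjusted p up to 0.2).

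**Figure D2:**
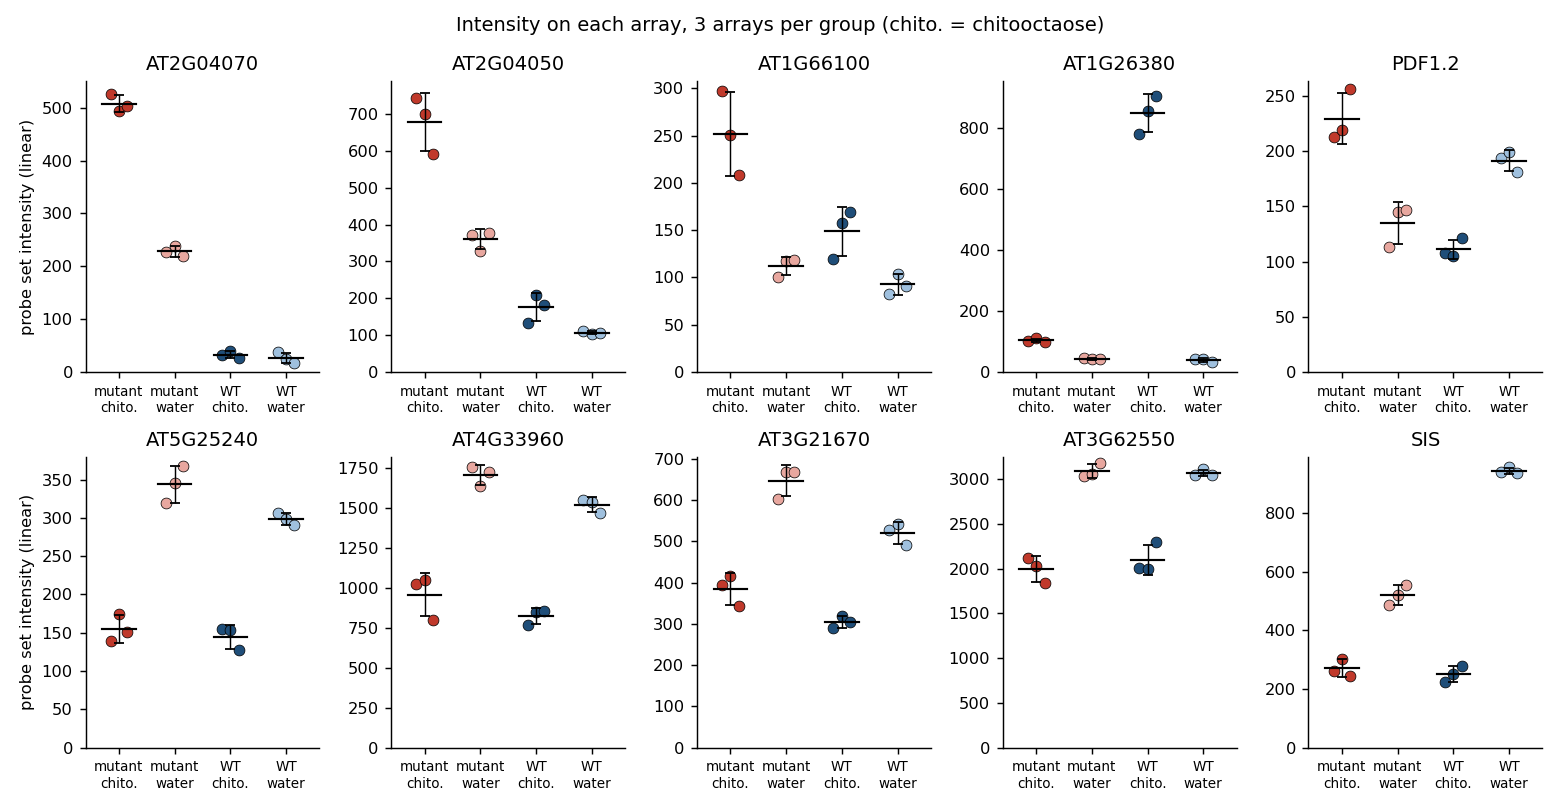
Intensity on each array (linear scale from 0) for 5 genes that rose in the receptor mutant (top row) and 5 that fell (bottom row), with mutant chitooctaose, mutant water, wild type (WT) chitooctaose and wild type water from left to right. Points are arrays, the line is the mean and the bar the SD (n = 3). The mutant chitooctaose arrays of AT2G04070 lie between 493 and 525 and the wild type arrays stay under 40, while PDF1.2 is high in mutant chitooctaose and in wild type water.

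Single members of several defence families also rose. Of 13 measured genes for defensins, thionins and PR proteins 2 rose in the mutant and none fell (median 0.14). Of all probe sets 0.721% were called higher. AT1G66100, coding for a thionin, a small antimicrobial peptide, had 297, 250.2 and 208 in mutant chitooctaose, against 101, 117 and 118 in mutant water. It rose by 1.06 ± 0.14 (adjusted p = 0.00058), and by 0.59 ± 0.14 in wild type, with an interval of 0.04 to 0.89 for the difference (adjusted p = 0.17). The defensin gene PDF1.2, a textbook marker of jasmonate and ethylene signalling, had 213, 219.7 and 256 in mutant chitooctaose, against 113, 145 and 147 in mutant water. In wild type it had 108, 105 and 121 in chitooctaose, against 194, 199.7 and 181 in water. The order of the treatments was thus opposite in the genotypes, with no overlap in either. It rose by 0.71 ± 0.11 in the mutant (adjusted p = 0.003) and fell by 0.70 in wild type (SE 0.11, adjusted p = 0.00021), a difference of 1.41 ± 0.16 (adjusted p = 6.7e-06). PDF1.2b, a close relative with which probes may be shared, had 0.24 in the mutant (adjusted p = 0.74) and -0.66 in wild type. The defensin-like gene LCR67 had 0.69 in the mutant and was not called (adjusted p = 0.092).

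AT1G26380, a berberine bridge-like FAD-linked oxidase of the route to cyanogenic indole compounds that defend against pathogens, had 101, 111 and 100.1 in mutant chitooctaose, against 47.3, 41.5 and 43.3 in mutant water. In wild type it had 783, 858 and 907 in chitooctaose, against 42.8, 41.6 and 31.6 in water. The water arrays of the genotypes overlapped, and mutant chitooctaose stood above both and far below wild type chitooctaose. The response was 1.00 ± 0.11 in the mutant (adjusted p = 0.00011) and 3.99 ± 0.11 in wild type (difference -2.99 ± 0.16, adjusted p = 4.6e-10). It was the 1 called of 22 measured oxidases of its family (median 0.01), and its relative AT1G26420 had 0.74 in the mutant (adjusted p = 0.093) and 3.19 in wild type.

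Of the 15 chitinase and chitinase-like genes measured 4 rose in the mutant and none fell (median 0.15), where 0.721% of all probe sets were called higher. CHI had 815, 769 and 656 in mutant chitooctaose, against 502, 494 and 536 in mutant water, and its responses were 0.53 ± 0.12 in the mutant and 0.47 ± 0.12 in wild type, with an interval of -0.29 to 0.41 for the difference. AT2G43610 and AT2G43620, neighbours in the gene order of chromosome 2, changed by 0.39 each in the mutant, and AT1G02360 by the same amount. In wild type these 3 had unlike responses, 0.01 ± 0.08 for AT2G43610, 1.52 ± 0.09 for AT2G43620 and 1.61 ± 0.09 for AT1G02360, and each differed from the mutant response (adjusted p = 0.045, 2.9e-06 and 3.6e-06). The neighbours AT2G43590 (-0.27, adjusted p = 0.062) and AT2G43580 (-0.14, adjusted p = 0.9) between CHI and AT2G43610 were not called. AT4G01700 had 0.10 in the mutant (95% interval -0.10 to 0.30) and rose by 2.08 in wild type. These chitinase calls depend on all 6 arrays, whereas the values behind them stayed positive in each fit without an array. They were 0.46 to 0.62 for CHI, 0.34 to 0.42 for AT2G43610, 0.36 to 0.40 for AT2G43620 and 0.37 to 0.41 for AT1G02360. With any 1 array left out the count was 0, except that 1 (CHI) was called without chitooctaose array 3, and without a mean-variance trend it was 0 as well. Under quantile normalization or median centring 4 of the list were called higher and 1 lower.

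UGT76B1, which glucosylates isoleucic acid and salicylic acid and so lowers active defence signals, had 521, 519.9 and 468 in mutant chitooctaose, against 335, 304 and 308 in mutant water. Wild type arrays had 216, 282 and 263 in chitooctaose, against 451, 494 and 417 in water. It rose by 0.65 ± 0.10 in the mutant (adjusted p = 0.0022) and fell by 0.81 in wild type (SE 0.10). It was the 1 called of 51 UDP-glycosyltransferase genes (median -0.05), where 1.49% of all probe sets were called. Values of the list ran from -1.34, which was not called, to 0.65. With single arrays left out 1 to 3 of the list were called higher and 0 to 1 lower. AT1G57630, a short protein with the TIR domain found in immune receptors, had 149.5, 174 and 133 in mutant chitooctaose, against 96.7, 77.2 and 95.6 in mutant water. It rose by 0.67 ± 0.13 in the mutant and by 3.13 ± 0.13 in wild type. Its mutant call was lost without chitooctaose array 1, chitooctaose array 2 or water array 2 (adjusted p up to 0.089). The other TIR gene called in the mutant, AT1G72920, fell by 0.45 there (SE 0.10, adjusted p = 0.028) and rose by 3.50 ± 0.10 in wild type, and its fall lost the call in 4 of the 6 fits without an array (chitooctaose 1 or 3, water 2 or 3, adjusted p up to 0.16). Of the 18 short TIR genes 1 rose and 1 fell in the mutant, with a median of 0.04, whereas 10 rose in wild type, with a median of 1.44.

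The list of genes known for induction under low oxygen held the most called increases, 6. Of its 25 measured genes none fell and 20 had a positive value (median 0.14), where 0.721% of all probe sets were called higher and 9673 of 22746 were positive. AT5G10040, a small protein of unknown function induced by low oxygen, had 3509, 3658 and 2974 in mutant chitooctaose, against 1887, 2201 and 2153 in mutant water. It rose by 0.69 ± 0.10 in the mutant (adjusted p = 0.00083), whereas its wild type response of 0.14 ± 0.10 was not called (adjusted p = 0.37), and the responses differed by 0.56 ± 0.14 (adjusted p = 0.012). AT3G29970, a B12D family protein, had 334, 384 and 297 in mutant chitooctaose, against 226, 188 and 173 in mutant water, with no overlap. It rose by 0.74 ± 0.11 in the mutant and by 1.76 ± 0.11 in wild type (difference -1.02 ± 0.15, adjusted p = 0.00016).

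The fermentation genes were in the same list. AT4G17260, coding for lactate dehydrogenase, had 1719, 1671 and 1591 in mutant chitooctaose, against 1217, 1220.2 and 1216 in mutant water. It rose by 0.44 ± 0.07 in the mutant (adjusted p = 0.0041) and by 0.70 ± 0.07 in wild type, with an interval of -0.48 to -0.04 for the difference (adjusted p = 0.14). PDC2, a pyruvate decarboxylase, rose by 0.30 ± 0.06 in the mutant (adjusted p = 0.02) and by 0.30 in wild type. AT4G27450, a YGL-motif protein, rose by 0.36 ± 0.08 and AT1G19530 by 0.52 ± 0.12, beside 0.07 and -0.23 in wild type, neither called. The difference of responses was called for AT1G19530 (adjusted p = 0.0059) and not for AT4G27450 (adjusted p = 0.11). The call of AT1G19530 was lost in 5 of 6 fits when single arrays were dropped (adjusted p up to 0.2). In wild type the list was mixed, with 9 rising and 6 falling (median 0.10). AT1G74940 had 0.14 in the mutant and fell by 0.95 in wild type, with a difference of 1.09 (adjusted p = 7e-07). The list's count in the mutant was 3 when chitooctaose array 1 or 2 or any of the water arrays was left out, and 7 without chitooctaose array 3. It was 10 under quantile normalization, 9 under median centring and 3 without a mean-variance trend.

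Among 16 heat shock proteins and chaperones 12 had a positive value (median 0.17), and 1 rose and 1 fell. Of all 22746 probe sets 9673 were positive and 1.49% were called. AT5G51440, a small heat shock protein of the mitochondrion, had 346, 360.3 and 329 in mutant chitooctaose, against 203, 223 and 235 in mutant water. It rose by 0.61 ± 0.09 in the mutant (adjusted p = 0.0011), was not called in wild type (-0.11 ± 0.09) and differed between the genotypes (0.72 ± 0.12, adjusted p = 0.00061). AT1G53540, a small cytosolic heat shock protein, had 0.71 in the mutant (adjusted p = 0.063) and -0.51 in wild type, and the difference of 1.22 was called (adjusted p = 0.0032). Fes1B, a nucleotide exchange factor for Hsp70, fell by 0.42 in the mutant (SE 0.10, adjusted p = 0.035), a call lost whenever an array was left out (adjusted p 0.083 to 0.19). TIL, a temperature-induced lipocalin that protects membranes, had 6078, 6015 and 6196 in mutant chitooctaose, against 4233, 4326 and 4232 in mutant water. It rose by 0.51 ± 0.06 in the mutant (adjusted p = 0.00011), and its wild type value of 0.10 ± 0.06 was not called (difference 0.41 ± 0.08, adjusted p = 0.0022). Of the other 8 cold and dehydration genes AT4G30650 fell by 0.49 and COR27 by 0.41, and the list's median was -0.10. Dropping single arrays ended the first call in 5 of 6 fits and the second in 4 (adjusted p up to 0.18 and 0.14).

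Of the 14 largest named decreases 10 were also called lower in wild type and 4 were not called there. AT5G25240, of unknown function, had 139, 175 and 151 in mutant chitooctaose, against 319, 345 and 367 in mutant water. The wild type intensities were 155, 153 and 127 in chitooctaose, against 306, 298 and 291 in water. All 4 groups fell into the same 2 ranges by treatment. It fell by 1.08 in the mutant (SE 0.10, adjusted p = 2.1e-05) and by 0.97 in wild type (SE 0.10), and the difference of -0.10 had a 95% interval of -0.42 to 0.21.

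AT3G21670, a nitrate transporter of the NPF family, had 394, 417 and 343 in mutant chitooctaose, against 603, 669 and 669 in mutant water. It fell by 0.73 in the mutant (SE 0.09, adjusted p = 0.00019) and by 0.74 in wild type (SE 0.09), with an interval of -0.25 to 0.28 for the difference. It was the 1 called of 12 nitrate transport and assimilation genes (median -0.13). AT4G33960, of unknown function, had 1021, 1047 and 800.0 in mutant chitooctaose, against 1757, 1634 and 1723 in mutant water. It fell by 0.83 in the mutant and by 0.87 in wild type (interval of the difference -0.23 to 0.31). AT1G12080 fell by 0.68 in the mutant and by 0.61 in wild type (-0.35 to 0.22), and AT2G47440, a TPR-repeat protein, by 0.71 and 0.92 (-0.06 to 0.49). The intervals of AT4G33960, AT1G12080, AT2G47440 and AT3G21670 bound the difference that these arrays leave room for, and no call of a difference was made for them.

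Of 11 measured genes of sugar starvation and darkness 4 fell, 7 were not called and none rose. All 11 had a negative value (median -0.29), where 0.769% of all probe sets were called lower and 13073 of 22746 were negative. AT3G62550, a universal stress protein relative, had 2120.3, 2030.1 and 1837 in mutant chitooctaose, against 3036, 3058 and 3183 in mutant water, with no overlap. It fell by 0.63 in the mutant (SE 0.07, adjusted p = 0.00013) and by 0.55 in wild type (interval of the difference -0.30 to 0.14). AT3G15450, a YGL-motif protein raised by darkness, had 5608, 5789 and 5406 in mutant chitooctaose, against 7490.0, 7205 and 7387 in mutant water (-0.39 ± 0.07, adjusted p = 0.0066). AT2G05540, a glycine-rich protein, fell by 0.43 in the mutant and by 0.90 in wild type, and these differed (0.47 ± 0.10, adjusted p = 0.0051). BZIP53, a transcription factor of low-energy and seed programmes, had 1564, 1557 and 1528 in mutant chitooctaose, against 2077, 2064 and 1928 in mutant water. It fell by 0.38 in the mutant (SE 0.06, adjusted p = 0.0042) and by 0.20 in wild type.

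The enzyme genes of leucine breakdown, a route used when sugar is short, stood in the same list. MCCA had -0.29 (adjusted p = 0.06), MCCB -0.13 (adjusted p = 0.68) and IVD -0.07 (adjusted p = 0.83) in the mutant, none called. In wild type all 11 genes of the list fell (median -0.67), and 6 had a called difference, always with the smaller fall in the mutant. IVD is an example, at -0.96 in wild type (difference 0.89, adjusted p = 2e-05). The count of 4 in the mutant was the same in each of the 6 fits without an array, and was 3 to 5 in the other settings.

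SIS, named for induction by salt, had 263, 304 and 244 in mutant chitooctaose, against 487, 519.6 and 554 in mutant water. Arrays of wild type had 224, 251 and 277 in chitooctaose, against 941, 955 and 935 in water. The chitooctaose arrays of the genotypes overlapped and their water arrays did not. It fell by 0.91 in the mutant (SE 0.10, adjusted p = 5.1e-05) and by 1.85 in wild type (difference 0.94 ± 0.14, adjusted p = 8.9e-05). AT3G07350, of the DUF506 family, had 673, 636 and 686 in mutant chitooctaose, against 1129, 1258 and 1216 in mutant water. It fell by 0.84 in the mutant (SE 0.07, adjusted p = 4.6e-06) and by 1.88 in wild type. AT2G20670, of the same family, fell by 0.65 in the mutant (SE 0.11, adjusted p = 0.0046) and by 2.59 in wild type. These were the 2 called of 6 DUF506 genes (median -0.20), where 0.769% of all probe sets were called lower. AT2G39650, another, had -0.17 in the mutant (adjusted p = 0.61) and rose by 3.20 in wild type.

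Several further decreases were also about as large or larger in wild type. AT5G20790, a gene of phosphate starvation, fell by 0.70 in the mutant and by 1.25 in wild type, and AT2G41250, a HAD-like hydrolase, by 0.70 and 1.36. Both differences were called (0.55 ± 0.12 and 0.65 ± 0.12, adjusted p = 0.0033 and 0.00092). Sulfur genes were the other nutrient group, with 2 of 4 falling and a median of -0.30, where 0.769% of all probe sets were called lower. AT1G04770, a TPR-repeat protein induced by sulfur deficiency, had 1580.1, 1841 and 1729.6 in mutant chitooctaose, against 2267, 2396 and 2601 in mutant water. It fell by 0.49 in the mutant (SE 0.08, adjusted p = 0.0036) and by 2.36 in wild type. APS3, an ATP sulfurylase that activates sulfate, fell by 0.45 in the mutant (SE 0.09, adjusted p = 0.012) but rose by 0.86 ± 0.09 in wild type, and its mutant call was lost without chitooctaose array 1, water array 2 or water array 3 (adjusted p up to 0.087). The sugar transporter gene SWEET2 fell by 0.39 in the mutant and by 0.48 in wild type, the 1 called of 16 sugar transporters, and lost its mutant call in 4 of 6 fits without an array (adjusted p up to 0.17).

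Some decreases were called in the mutant and not in wild type, and the responses differed. AT1G65870, a dirigent-like protein of a family that guides lignan and lignin coupling, had 52.8, 46.9 and 49.9 in mutant chitooctaose, against 98.4, 86.7 and 87.5 in mutant water. The wild type arrays held 61.5, 59.2 and 67.8 in chitooctaose, against 62.2, 58.2 and 61.5 in water. It fell by 0.70 in the mutant (SE 0.12, adjusted p = 0.0055) and had 0.04 ± 0.12 in wild type (difference -0.74 ± 0.17, adjusted p = 0.0078). AT3G28270 had 98.9, 91.6 and 84.3 in mutant chitooctaose, against 139.9, 157 and 165 in mutant water, and its wild type arrays lay at 71.1, 76 and 66.2 in chitooctaose, against 71.5, 71.6 and 73.7 in water. It fell by 0.66 in the mutant (SE 0.11, adjusted p = 0.0047) and had -0.02 ± 0.11 in wild type (difference -0.64 ± 0.16, adjusted p = 0.013). For both genes mutant water was the group that stood above the rest. The other large decreases not called in wild type were AT4G33666 and AT3G15720. AT4G33666 had 763, 747 and 611 in mutant chitooctaose, against 1269, 1024 and 1205 in mutant water, and fell by 0.71 (SE 0.13, adjusted p = 0.0075), beside -0.24 in wild type. Its call was lost without water array 1 or water array 3 (adjusted p up to 0.061). AT3G15720 had 49, 52.9 and 50.7 in mutant chitooctaose, against 82.8, 93.5 and 112 in mutant water, and fell by 0.74 (SE 0.17, adjusted p = 0.034), beside -0.25 in wild type. Its call was lost whenever an array was left out (adjusted p 0.061 to 0.2). Neither difference from wild type was called (adjusted p = 0.12 and 0.24). The peroxidase gene AT5G64110 fell by 0.54 in the mutant and had 0.11 in wild type (difference -0.65 ± 0.18, adjusted p = 0.024), with a mutant call that was lost in 5 of 6 fits without an array (adjusted p up to 0.18). Of 54 class III peroxidase genes it was the 1 that fell, and AT1G49570 and AT4G36430 rose, where 1.49% of all probe sets were called. Leaving out single arrays ended the call of AT1G49570 in 4 fits (adjusted p up to 0.074) and that of AT4G36430 in all 6 (up to 0.2).

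Increases were also found outside the lists, some with a called difference from wild type and some without. AT4G39675, of unknown function, had 3020.0, 3077 and 2922 in mutant chitooctaose, against 1587, 1532 and 1591 in mutant water. Wild type seedlings had 3307, 3390.0 and 3207 in chitooctaose, against 3816, 4168 and 3625 in water. It rose by 0.93 ± 0.07 in the mutant (adjusted p = 7.6e-07) and fell by 0.23 in wild type (SE 0.07, adjusted p = 0.022), and mutant water was the group that stood low. AT2G41730 had 986, 1185 and 1087 in mutant chitooctaose, against 619.8, 717 and 707 in mutant water (0.66 ± 0.08, adjusted p = 0.00023), and had 0.15 ± 0.08 in wild type (difference 0.51 ± 0.11, adjusted p = 0.006). AT4G31020, an alpha/beta hydrolase, rose by 0.67 ± 0.11 in the mutant and by 0.52 ± 0.11 in wild type, with an interval of -0.16 to 0.47 for the difference. AT3G60420, of the phosphoglycerate mutase family, rose by 0.67 ± 0.14 in the mutant and by 2.81 ± 0.14 in wild type, and lost its mutant call in each fit without an array (adjusted p 0.052 to 0.11). AT4G26460 rose by 0.73 ± 0.14 in the mutant and by 0.67 ± 0.14 in wild type (difference 0.07 ± 0.20, adjusted p = 0.9). It lost its mutant call in 4 such fits (adjusted p up to 0.066).

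Of the 339 calls 61 had a called wild type response in the opposite direction. AT5G03230, AT2G37750, EXO, AT5G63130 and AT2G25735 are described here as examples chosen after their values were seen. EXO, a wall protein that promotes cell expansion under brassinosteroid control, had 2572, 2923 and 2658 in mutant chitooctaose, against 3714, 4201 and 4493 in mutant water. Intensities in wild type were 5611, 6624 and 6445 in chitooctaose, against 3762, 3693 and 3879 in water. It fell by 0.60 in the mutant (SE 0.08, adjusted p = 0.0007) and rose by 0.71 ± 0.08 in wild type. AT2G25735 had 277, 295 and 293 in mutant chitooctaose, against 445, 405 and 417 in mutant water, and fell by 0.53 (SE 0.07, adjusted p = 0.00083). Wild type arrays had 3747, 3778 and 4208 in chitooctaose, against 507, 504 and 512 in water, a rise of 2.90 ± 0.07.

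AT5G63130, a PB1-domain protein, fell by 0.64 in the mutant (SE 0.11, adjusted p = 0.0059) and rose by 1.49 ± 0.11 in wild type. Its mutant call was lost without water array 3 (adjusted p = 0.051). In the other direction, AT5G03230 had 1273, 1296 and 1146 in mutant chitooctaose, against 886, 810.2 and 854 in mutant water, and 209.5, 311 and 282 in wild type chitooctaose, against 1191, 1248 and 1022 in wild type water. It rose by 0.53 ± 0.12 in the mutant (adjusted p = 0.025) and fell by 2.06 in wild type, and lost its mutant call in 5 of 6 fits without an array (adjusted p up to 0.13). The jacalin lectin gene AT1G52060 (0.37 and -0.91), AT2G37750 (0.37 and -1.03) and the peroxidase gene AT4G36430 (0.36 and -0.94) also rose in the mutant and fell in wild type, with mutant calls lost in 5, 4 and 6 of these fits. In water AT1G52060 and AT2G37750 were called lower in the mutant than in wild type (-1.42 and -0.99). AT4G36430 was not (-0.16, adjusted p = 0.31). Means of AT1G52060 were 486 in mutant and 1328 in wild type water, against 636 and 701 in chitooctaose. Those of AT2G37750 were 1185 and 2374 in water, against 1540 and 1157 in chitooctaose. Both genes thus differed more between the genotypes in water than in chitooctaose.

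**Figure D3:**
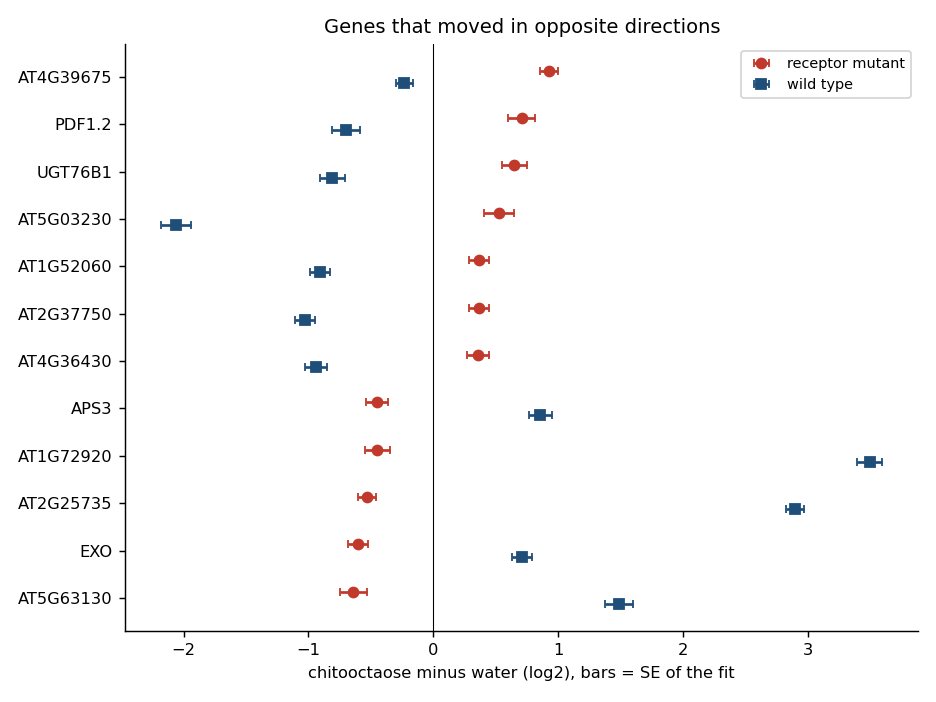
Response to chitooctaose in the receptor mutant (red circles) and in wild type (blue squares) of the 12 named genes called in opposite directions, as log2 differences with the SE of the fit. The mutant responses lie between -0.64 and 0.93 and the wild type responses between -2.06 and 3.50.

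WRKY transcription factors, calmodulin-like calcium sensors and U-box E3 ligases together had 26 measured genes. Limma called 0 of them in the mutant, beside 1.49% of all probe sets, so that the count by itself does not set them apart, and 6 had an unadjusted p under 0.05. Under quantile normalization or median centring 1 calmodulin-like gene was called lower and 1 U-box gene each way, and 1 gene was called lower in one or both of these families without the trend, without the dimmest 40% or without chitooctaose array 2. The 15 that rose in wild type had a median of -0.13 in the mutant, 5 of them positive and 10 negative, against 0.26 to 4.74 with a median of 2.04 in wild type. None fell in wild type, and 14 of the 15 had a called difference. CML37 stood at a mean of 32.6 in mutant chitooctaose and 30.1 in mutant water, against 847 in wild type chitooctaose and 16.5 in wild type water.

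The 95% intervals bound what the mutant could have hidden. WRKY53 had -0.22 in the mutant with an interval of -0.47 to 0.03, beside 4.59 in wild type, and WRKY22 had -0.23 (-0.45 to -0.02), beside 2.04. PUB23 had -0.07 (-0.26 to 0.11) and PUB24 -0.13 (-0.34 to 0.08), beside 2.92 and 2.79 in wild type. Both ligases dampen immune signalling. AT3G01830, a calmodulin-like protein, had the highest mutant value of the 15, at 0.46 with an interval of 0.16 to 0.75 (adjusted p = 0.15), and PUB22 had 0.30 (0.08 to 0.51, adjusted p = 0.23). The lowest was CML42 at -0.50 (-0.77 to -0.24, adjusted p = 0.056), beside 2.16 in wild type. The zinc finger repressor gene STZ had -0.11 in the mutant (adjusted p = 0.75) and 4.41 in wild type, and the NAC gene AT3G12910 had -0.07 (adjusted p = 0.95) and 4.79.

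**Figure D4:**
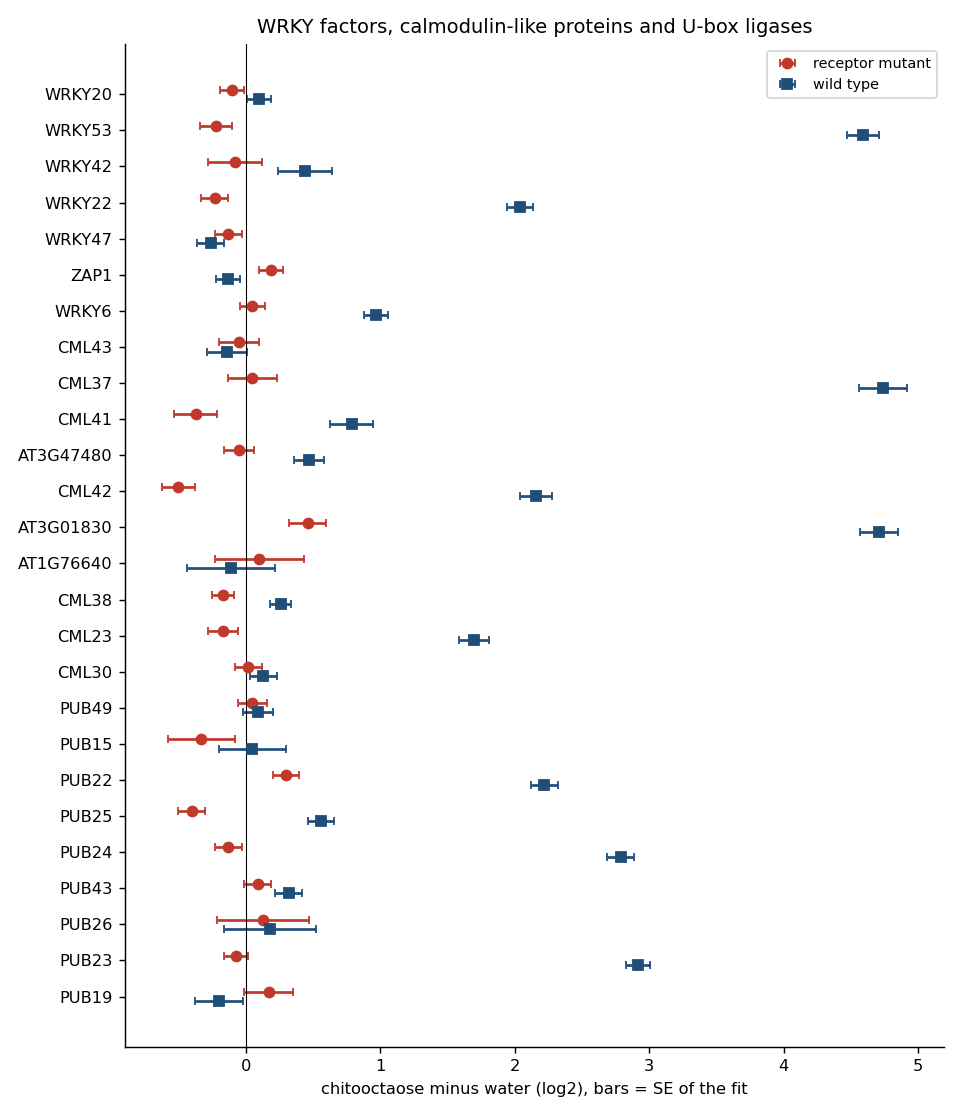
Response to chitooctaose of the 26 WRKY, calmodulin-like and U-box genes in the receptor mutant (red circles) and in wild type (blue squares), as log2 differences with the SE of the fit. The mutant responses lie between -0.50 and 0.46 and none is called, while 15 genes rise in wild type by up to 4.74.

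Over the 35 function lists with at least 3 measured genes, 496 genes in all, 26 genes rose and 17 fell in the mutant, beside 72 and 78 of all 13513 probe sets of 1 gene. The lists were chosen with earlier results of these data known, so the counts describe them only. Called members were all higher in 9 lists, all lower in 7 and of both directions in 4, and 15 lists had none. None of 13 glutathione S-transferases, 23 cytochrome P450s and 9 xenobiotic reductases was called by limma, with 4, 3 and 2 at an unadjusted p under 0.05, where 1.49% of all probe sets were called. In other settings 1 glutathione S-transferase was called lower (quantile normalization, median centring, without the dimmest 40%) and 1 cytochrome P450 (without chitooctaose array 2). Of 29 expansins and XTH wall enzymes XTH18 rose by 0.37 ± 0.08 (1.57 ± 0.08 in wild type), a call lost in 4 of the 6 fits without an array (adjusted p up to 0.12). None of 11 photosynthesis genes was called (median -0.06, 1 at an unadjusted p under 0.05), nor any of 12 auxin conjugation and Aux/IAA genes (median 0.03, with 2). Nor was any of 7 bHLH factors (with 1), 7 histone genes (with 1), 6 RING ligases (with 0), 4 metal transporters (with 0), 4 pectin enzymes (with 0) or 3 ERF and AP2 factors (with 0). Under quantile normalization, under median centring and with only the mutant arrays, 1 photosynthesis gene and 1 auxin gene were called higher. The auxin conjugation gene GH3.3 had 0.36 ± 0.09 in the mutant (adjusted p = 0.055) and fell by 0.60 in wild type (SE 0.09). Its difference of responses was called (0.96 ± 0.12, adjusted p = 3.2e-05). DFR, an enzyme of anthocyanin synthesis, lay just past the threshold. It had 231, 277 and 237 in mutant chitooctaose, against 477, 396 and 459.8 in mutant water, with a value of -0.80 ± 0.20 (adjusted p = 0.053). In wild type it stood at 31.1, 79.1 and 74.4 in chitooctaose, against 41.2, 40.1 and 33.8 in water, and the difference of responses was called (-1.25 ± 0.28, adjusted p = 0.0054).

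**Figure D5:**
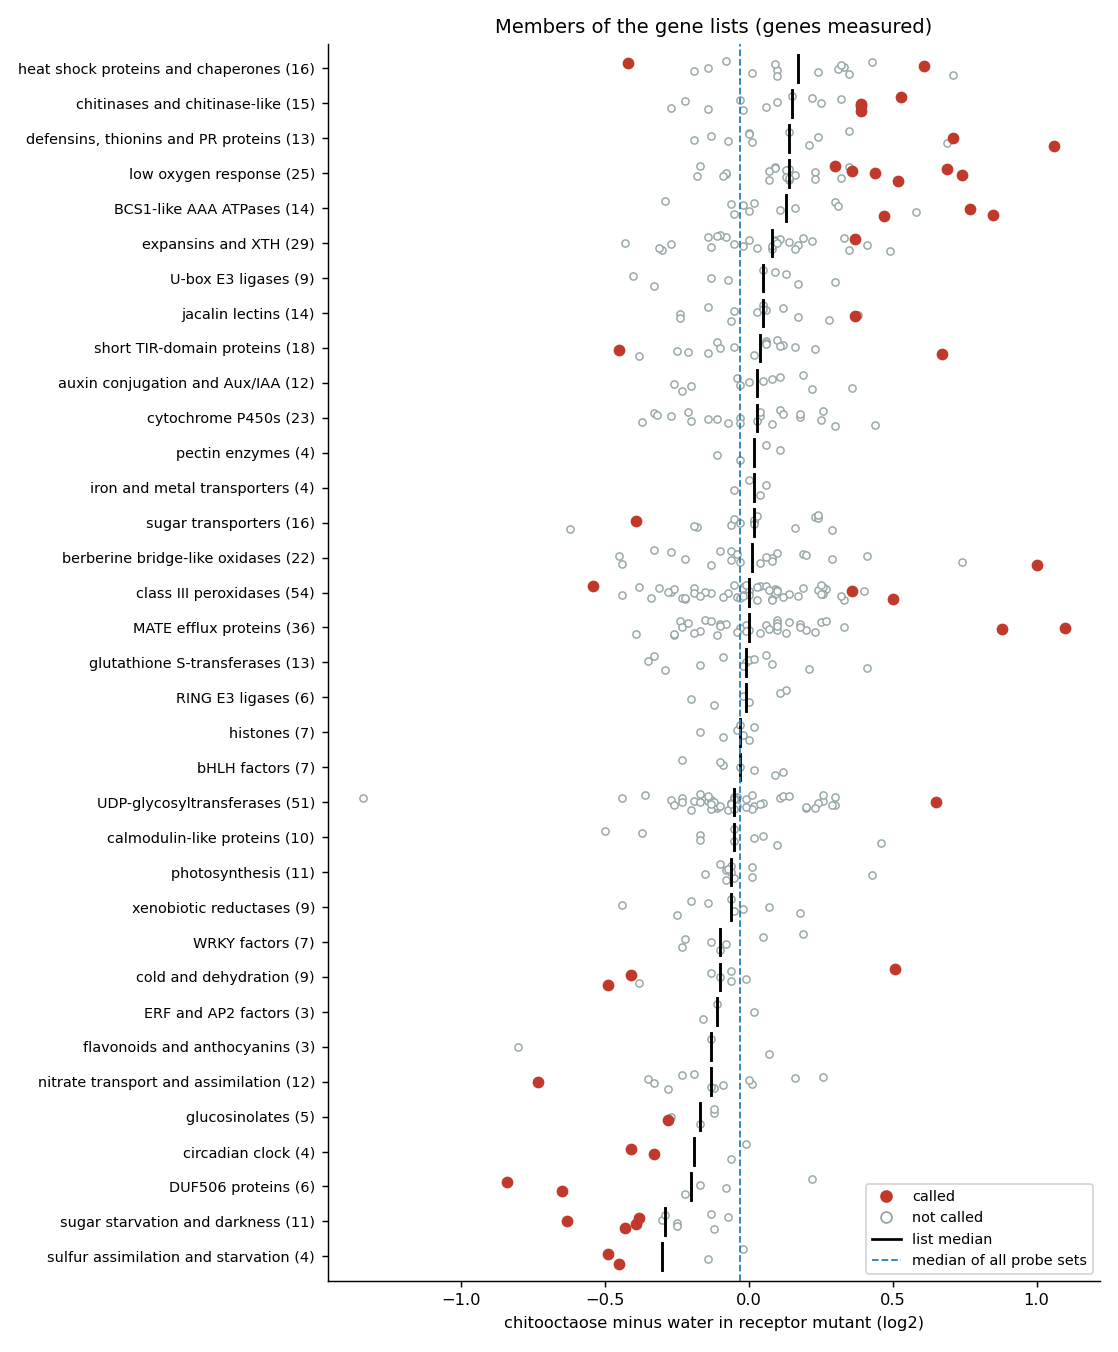
Mutant response to chitooctaose (log2) of every measured member of the 35 function lists, ordered by list median (black bars), with the number of genes measured in brackets. Filled red points are called, open points are not, and the dashed line is the median of all probe sets (-0.03). Called members reach 1.1 among MATE efflux proteins and -0.84 among DUF506 proteins.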

How the data were processed

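RNA of 4 groups, 3 arrays each, was hybridised to one-colour Affymetrix arrays. The authors deposited 1 linear intensity value per probe set and array. No source used here says how they summarised, background-corrected or scaled it. From these values, 64 control probe sets were dropped and log2(intensity + 16) was taken with no further scaling. All 12 arrays entered 1 linear model in limma (version 3.58.1, under R 4.3.3) (moderated variances with a trend on mean level; residual degrees of freedom 8, prior 8.3), with Benjamini-Hochberg adjustment over 22746 probe sets, two-sided. The script was tested on simulated data. A permutation test of 3 against 3 arrays cannot go below a two-sided p of 0.1.

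The platform annotation ties 13513 probe sets to 1 gene, 503 to several and 8730 to none, which are unnamed here. Names and gene order come from the TAIR10.1 gene table. The annotation is partial, so a list's measured members are a part of its family. No array date or batch was used here.

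Genes named are the 16 largest increases and 14 largest decreases among called probe sets of 1 gene whose groups do not overlap, up to 4 called members of each list (or the 2 of lowest p), the 2 largest changes each way among probe sets with no single gene name (none or several), and called neighbours. Other list members given for comparison were chosen after their values were seen. Members and lists were chosen with earlier results of these data known, and the loci of each list were written and corrected with values in view, so lists have no test. Of 49 function lists, the 35 with at least 3 measured genes are described. Other settings tried were a replicate block, a fit without the trend, a fit of only the arrays compared, dropping each array in turn, a pseudocount of 1 or 64, omission of the 40% dimmest probe sets, and centring or quantile-normalizing the arrays. Tables were made in Python (3.11.15) with pandas (2.3.3) and figures with matplotlib (3.10.9).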

Additional observations from a re-analysis of the deposited data

Results flagged for a closer look

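The response to chitooctaose differed between receptor mutant and wild type, by a called difference of responses, for 40 of the named genes and probe sets called in the mutant. Values are mutant minus wild type on the log2 scale. The mutant response by which these genes were chosen is part of each value.

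Genes that rose in the mutant and fell or were not called in wild type had positive differences. They were AT5G03230 (2.59), UGT76B1 (1.45), PDF1.2 (1.41), AT2G37750 (1.40), AT4G36430 (1.30), AT1G52060 (1.28), AT4G39675 (1.16), AT2G04070 (0.90), AT1G19530 (0.75), AT5G51440 (0.72), AT1G49570 (0.63), AT5G10040 (0.56), AT2G41730 (0.51), TIL (0.41) and AT2G43610 (0.38). Probe set 252746_at (0.95) rose in both genotypes, more so in the mutant, which started lower. Its means in water were 763 in the mutant and 2237 in wild type, and 2008 and 3014 in chitooctaose. Genes that rose in both with the larger rise in wild type were AT1G26380 (-2.99), AT1G57630 (-2.46), AT3G60420 (-2.14), AT3G28580 (-1.63), AT1G02360 (-1.22), XTH18 (-1.20), AT2G43620 (-1.13), AT3G29970 (-1.02) and AT1G43910 (-1.0).

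Genes that fell in the mutant and rose or were not called in wild type were AT1G72920 (-3.96), AT2G25735 (-3.43), AT5G63130 (-2.13), EXO (-1.32), APS3 (-1.31), AT1G65870 (-0.74), AT5G64110 (-0.65) and AT3G28270 (-0.64). Genes that fell in both with the larger fall in wild type were AT2G20670 (1.95), AT1G04770 (1.86), AT3G07350 (1.04), SIS (0.94), AT2G41250 (0.65), AT5G20790 (0.55) and AT2G05540 (0.47).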

How the results depend on the processing

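The 339 calls in the mutant became 676 under quantile normalization, 672 under median centring and 193 without a mean-variance trend, and 155 to 243 when 1 array was left out (155 without water array 3). Of the 339, 337 were also among the 676, 338 among the 672 and 184 among the 193. In the other settings the count was 324 to 411. Without chitooctaose array 2 there were 81 higher and 150 lower, and without water array 3 there were 87 and 68, against 164 and 175. The wild type count stayed between 3124 and 5770 and that of the difference between 2029 and 3708, each within 1.5 times its value in the report. Under quantile normalization 2220 probe sets were higher and 3550 lower in wild type (2007 and 2291 in the report), and for the difference 2042 were higher and 1666 lower (1060 and 1505).

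With the replicate number as a block there were 324 calls (159 higher, 165 lower), 300 of them among the 339. Residuals of the same-numbered mutant arrays correlated at 0.0802, -0.0414 and -0.0277. For arrays of unlike numbers the correlations ran from -0.064 to 0.0877, so same-numbered arrays were no more alike than that range. Such correlations cannot show a link limited to some probe sets, which was not tested.

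Of the 66 named genes and probe sets called in the mutant 38 kept the call in all 6 fits without an array, 20 lost it in some and 8 in all. Values not called ranged over 0 when single mutant arrays were left out, from -0.21 to 0.03 for ORA47 (0.03 without water array 1), -0.27 to 0.00 for AT1G33760 (0.00 without water array 3), -0.18 to 0.01 for HON4 (0.01 without chitooctaose array 3), -0.04 to 0.14 for ZIP6 (-0.04 without water array 1) and -0.11 to 0.16 for MTP11 (-0.02 and -0.03 without chitooctaose array 2 or 3, -0.11 without water array 1). The causes were not tested.

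Unknown scaling by the authors, 3 arrays per group and no named receptor probe set limit these values. Dim genes were rarely called, so their absence from the calls says little.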

Other observations

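Among named genes chosen by the rule, the glucosinolate gene AT2G25450 fell by 0.28 in the mutant (SE 0.07, adjusted p = 0.045), and all 5 measured glucosinolate genes had a negative value (median -0.17). Of all 22746 probe sets 13073 were negative. The call of AT2G25450 was lost in all 6 fits without an array. The clock-associated genes COR27 and CCL fell by 0.41 and 0.33 in the mutant, and neither was called in wild type (-0.11 and -0.13). Neither difference of responses was called (adjusted p = 0.15 and 0.31). The call of CCL was lost in 4 of 6 fits when single arrays were dropped (chitooctaose 1 or 3, water 1 or 3, adjusted p up to 0.21), and also without the trend, with only the mutant arrays and with the replicate block. GI, a central clock gene, had -0.01 in the mutant and 0.26 in wild type. LHCB4.3, a light-harvesting protein of photosystem II, had 0.43 in the mutant (adjusted p = 0.06) and rose by 1.03 in wild type. SAG29, a sugar transporter of senescence, had -0.62 in the mutant (adjusted p = 0.054).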
